A study of Homo sapiens with 6 samples.

Results

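The mitochondrial ribosomal protein genes were taken as every protein-coding gene of the deposited table with a symbol made of MRPL or MRPS, a number and at most 1 letter from A to C. The rule found 78 of the 33981 genes in the table, 49 with an MRPL symbol and 29 with an MRPS symbol, and it used no measured value. The mitochondrial ribosome, or mitoribosome, sits in the mitochondrial matrix and translates the few messenger RNAs encoded by mitochondrial DNA, all of them for subunits of the respiratory chain and the ATP synthase. Its ribosomal RNAs are mitochondrial transcripts, whereas its proteins are encoded in the nucleus, made in the cytosol and imported. Part of these proteins have counterparts in the bacterial ribosome and part are found only in mitochondria, and AML cells have been described as sensitive to blocked mitochondrial translation.

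The samples were 6 preparations of THP-1, a human monocytic line from an acute myeloid leukemia (AML). Of these, 3 were infected with a lentivirus carrying a scrambled shRNA (C1, C3 and C4) and 3 with a lentivirus carrying an shRNA against NFIC (N1, N2 and N3), a transcription factor of the nuclear factor I family. All were sorted for GFP from the vector 4 days after infection and sequenced as bulk RNA. Both groups therefore shared a vector and the sort, and by the labels also a hairpin. The study names the hairpin as sh494 and no other NFIC hairpin for these samples. Effects particular to this hairpin cannot be told apart from those of lower NFIC. Its methods describe the control vector of the study as GFP only where the sample labels say scrambled. The text of the study also names a control C2 where the labels and the table have C3, and the labels were followed. The sources do not say whether the samples of a group were separate infections, so the p-values measure the spread between these samples, which may be technical. NFIC itself was at 42.1, 41.4 and 42.2 CPM (counts scaled to the library size with TMM factors) in C1, C3 and C4 and at 19.4, 22.3 and 21.4 CPM in N1, N2 and N3, a log2 fold change of -0.99 (SE 0.072, edgeR adjusted p = 3.73e-09).

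Libraries held 20369543 to 24809720 counts, and 3 counts, taken as the smallest detectable amount, stood for 0.122 to 0.146 CPM, for counting error only. The first principal component (77.2% of the variance) separated the groups, and along the second (7.37%) C3 and N3 stood apart from the other 4 samples. C3 was above its group mean in 60 of the 78 members and N3 in 59 of 78. The 9 myeloid and monocytic markers examined were all measured. They summed to 3936 to 3984 CPM in the scrambled samples and 3033 to 3318 CPM with NFIC shRNA. Of these, CTSG (2214 to 1325 CPM, the group means), CD4, CD33, CSF1R and MPO fell, LYZ (572 to 940 CPM) and PTPRC (169 to 187 CPM) rose, and SPI1 and FCGR1A did not pass the test. CTSG alone fell by more CPM than the sum (3953 to 3186 CPM, group means), so the direction of the sum rests on CTSG. Of 4 markers of other cells, ALB and HBB were at 0 in 5 of 6 samples each, EPCAM was at most at 0.691 CPM, and COL1A1 was at 4.72, 5.28 and 5.65 CPM against 1.504, 1.85 and 1.99 CPM. The part of any of these markers in the results was not tested.

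All 78 members were expressed well enough to be tested, and the lowest count of any member in any sample was 135. With NFIC KD, 30 members fell, 14 rose and 34 did not pass an adjusted p of 0.05 (edgeR quasi-likelihood test, Benjamini-Hochberg adjustment over 19182 genes). That is 38.5% lower and 17.9% higher, beside 30.3% and 29.6% of all genes tested, and 56.4% called in either direction beside 59.9%. Of the 13800 protein-coding genes tested, 32.4% were lower, 33.0% higher and 4781 not called. The members were therefore called about as often as all genes tested and less often than protein-coding genes. Beside both backgrounds they had more calls on the lower side and fewer on the higher side. In 32 members all NFIC shRNA samples were below all scrambled samples and in 16 all were above, or 41.0% and 20.5% of the members beside 33.0% and 32.2% of the genes tested. With C3 and N3 left out together, 29 members were lower and 15 higher. In bulk RNA, a lower level cannot be told apart from fewer cells of a type that has it.

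Most of the differences were small. The median log2 fold change of the members was -0.05 (quartiles -0.28 and 0.12), beside -0.01 (quartiles -0.44 and 0.33) for all genes tested. The median size of the difference, whatever its sign, was 0.21 on the log2 scale for the members, 0.37 for all genes and 0.35 for protein-coding genes. Of the 44 called members, 7 differed by at least 1.5-fold (15.9%), beside 47.6% of all called genes and 42.7% of the called protein-coding genes. They were MRPL58, MRPS26, MRPS27, MRPS21, MRPL21 and MRPL4, which were lower, and MRPS28, which was higher. For all 34 members that did not pass the test the 95% interval of the difference lay inside 1.5-fold either way, with bounds from -0.39 to 0.48.

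**Figure D1:**
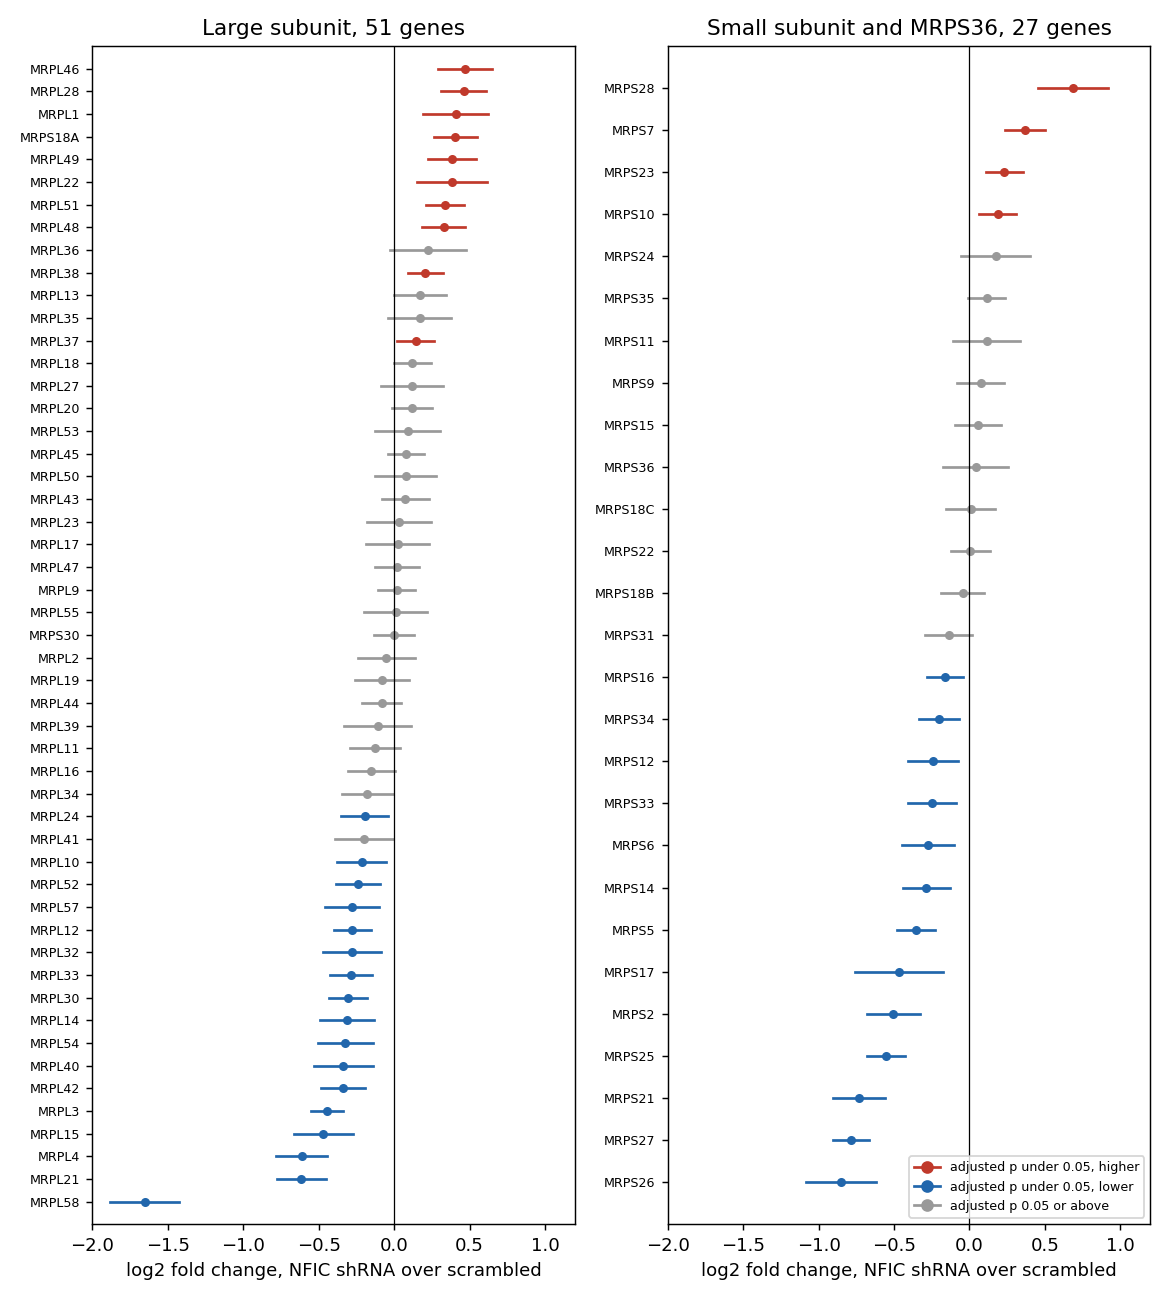
Log2 fold change (NFIC shRNA over scrambled, x axis) of each of the 78 members, with points for the estimate and bars for its 95% interval (edgeR, 3 samples a group). MRPL58 lies far to the left of the other large-subunit genes at -1.65, MRPS28 is the highest at 0.69, and the grey intervals of the uncalled members stay within -0.39 to 0.48.

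The summed level of the 78 members was 2943, 3074 and 2935 CPM in C1, C3 and C4 and 2771, 2799 and 2981 CPM in N1, N2 and N3, or 95.5% of control. N3 was above both C1 and C4, so the groups overlapped. The 51 genes of the large subunit summed to 98.0% of control, again with overlap. The 26 genes of the small subunit summed to 1094, 1114 and 1080 CPM against 977, 981 and 1040 CPM, or 91.2% of control. Here no NFIC shRNA sample reached a scrambled one. Most of this fall, from 1096 to 999 CPM (group means), lay in MRPS27 (104 to 60.4 CPM), MRPS25 (89.1 to 60.8 CPM) and MRPS21 (41.3 to 24.8 CPM). The sum therefore does not describe the small-subunit genes evenly, and 4 of the 26 rose.

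The cytosolic ribosome gave another picture. Of its 85 protein genes tested, 80 fell and 2 rose (94.1% and 2.35%), with a median log2 fold change of -0.71 and a summed level at 59.6% of control. The members' median of -0.05 and sum of 95.5% stand beside these values, and the difference between the families was not tested. The 13 protein-coding genes of mitochondrial DNA, whose messenger RNAs the mitoribosome translates, summed to 28514, 30145 and 28978 CPM with the scrambled shRNA. With NFIC KD they summed to 29994, 33387 and 32489 CPM (109% of control). N1 was below C3 in that sum. Of the 13, 6 rose and none fell (46.2% higher, beside 29.6% of all genes), among them MT-CO3, a subunit of cytochrome c oxidase (0.21, adjusted p = 0.00267), and MT-ND6, a subunit of complex I (0.27, adjusted p = 0.000154). The ribosomal RNAs MT-RNR1 (-0.03, adjusted p = 0.625) and MT-RNR2 (-0.08, adjusted p = 0.223) did not pass the test.

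**Figure D2:**
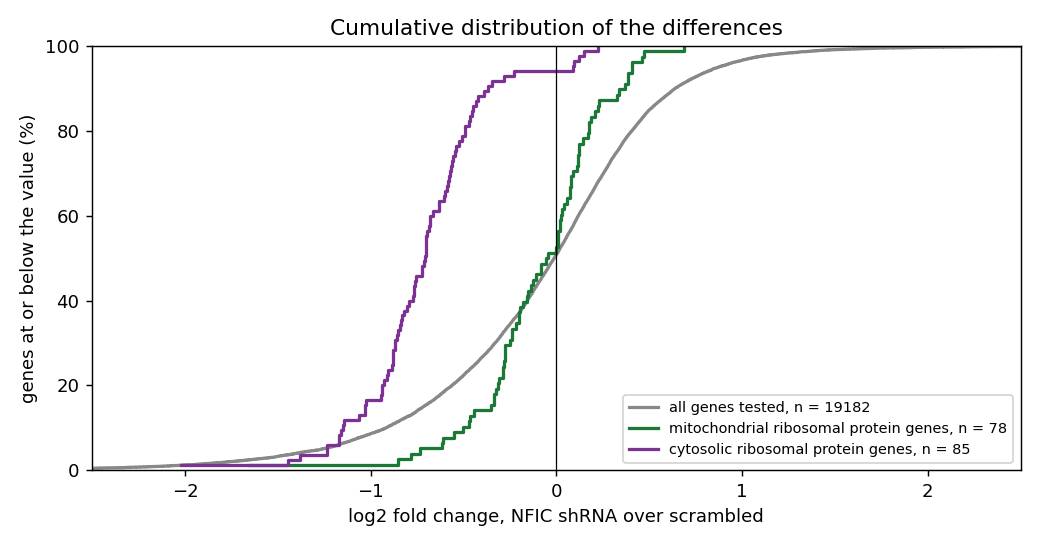
Share of genes (y axis, percent) at or below a given log2 fold change (x axis) for the 78 members, the 85 cytosolic ribosomal protein genes tested and all 19182 genes tested. The curve of the members is steep around 0, near the median of all genes at -0.01, and that of the cytosolic genes lies to the left, with its median at -0.71.

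The sequence before the start site is shown for 6 of the 10 members with the largest falls and rises, in stretches free of annotated exons, so that the regions behind the extremes can be compared. RefSeq (GRCh38.p14) held promoters for 69 of the 78 members. Each stretch reads 5′ to 3′ on the strand of the gene and ends at the base before the start that RefSeq gives. For MRPL28 the longest transcript of the GENCODE annotation starts further upstream, so its stretch lies inside the gene as placed here. Capitals mark CCGGAAG or its reverse complement, the core of the sites of ETS factors such as GABP, a regulator of nuclear genes for mitochondria. The first 3 genes fell with NFIC KD and the last 3 rose.
MRPL58 (chr17:75012520-75012669, plus strand): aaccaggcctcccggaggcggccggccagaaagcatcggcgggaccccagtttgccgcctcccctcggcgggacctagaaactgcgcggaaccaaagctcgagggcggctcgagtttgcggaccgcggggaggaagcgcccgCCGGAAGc
MRPS26 (chr20:3045902-3046051, plus strand): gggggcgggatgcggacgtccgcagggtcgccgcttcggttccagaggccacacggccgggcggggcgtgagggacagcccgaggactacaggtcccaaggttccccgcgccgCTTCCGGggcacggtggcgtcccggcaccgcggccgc
MRPS21 (chr1:150293711-150293860, plus strand): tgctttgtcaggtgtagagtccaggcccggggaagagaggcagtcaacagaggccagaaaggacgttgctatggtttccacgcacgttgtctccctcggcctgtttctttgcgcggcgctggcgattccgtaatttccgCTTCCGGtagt
MRPL28 (chr16:370539-370688, minus strand): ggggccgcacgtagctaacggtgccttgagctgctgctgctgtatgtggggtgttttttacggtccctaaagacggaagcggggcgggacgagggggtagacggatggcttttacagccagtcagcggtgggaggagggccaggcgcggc
MRPL1 (chr4:77862680-77862829, plus strand): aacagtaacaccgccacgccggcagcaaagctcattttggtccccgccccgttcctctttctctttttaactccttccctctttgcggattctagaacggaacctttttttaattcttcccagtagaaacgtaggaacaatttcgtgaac
MRPS18A (chr6:43687792-43687941, minus strand): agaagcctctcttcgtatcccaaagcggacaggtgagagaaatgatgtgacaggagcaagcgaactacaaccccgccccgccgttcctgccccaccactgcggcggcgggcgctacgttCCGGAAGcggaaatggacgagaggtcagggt
The motif began at base 143 of the stretch of MRPL58, at base 114 of MRPS26, at base 140 of MRPS21 and at base 120 of MRPS18A, counted from the 5′ end. It was therefore present in genes that fell and in a gene that rose.

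The falls and rises given here for each motif stand beside 30.3% lower and 29.6% higher over all genes tested. Over all members the shares were 38.5% and 17.9%, and differences between genes with and without a motif were not tested. Over the full promoter windows of 300 bases (250 before the start and 50 after), searched on both strands, CCGGAAG was in 29 of 69 member promoters (42.0%) and in 10.7% of all 27305 promoters. Of these 29 genes, 13 fell and 7 rose, with a median log2 fold change of -0.14, and of the 40 without it, 14 fell and 6 rose (median -0.06). With the 50 bases after the start left out, the order of the medians turned, to 0.0069 over 23 genes with the motif and -0.10 over 46 without it. AAGATGGC, the core of YY1 sites, was in 20 member promoters (29.0%) and in 3.03% of all promoters. Of the 20 genes with it, 5 fell and 7 rose (median 0.10), and of the 49 without it, 22 fell and 6 rose (median -0.15). In the shorter window 5 members held it, of which 3 fell and none rose. GCGCANGCG, the core of NRF1 sites, was in 13 member promoters (18.8%, all promoters 8.05%), with 4 lower and 2 higher. The E-box CACGTG, which MYC and its partners bind, was in 6 (8.70%, all promoters 7.43%), with none lower and 3 higher. The NFI core TTGGCA was in 6 (8.70%, all promoters 12.7%), with 1 lower and 1 higher, and the full NFI palindrome was in none of the 69. None of the motifs after CCGGAAG lay in the stretches printed. Matches to 2 different motifs shared no base in any member promoter. The 27305 promoters include those of genes not tested here, whereas all members were tested. No share over the promoters of tested genes was taken, so the shares do not show that a motif is particular to the members. A match is a description of the letters and not of binding.

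The largest fall was that of MRPL58 (ENSG00000167862, chr17:75012670-75021261, plus strand, GRCh38), a peptidyl-tRNA hydrolase built into the large subunit that can free stalled chains. It was at 22.0, 23.3 and 23.1 CPM in C1, C3 and C4 and at 8.34, 7.46 and 5.98 CPM in N1, N2 and N3. Every knockdown sample was far below every control, and the log2 fold change was -1.65 (SE 0.108, adjusted p = 9.67e-10), or 31.8% of control. The next largest fall left 55.4% of control. MRPL58 shares no exon with a neighbour in the annotation.

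Small-subunit genes made up 3 of the 5 largest falls. MRPS26 (ENSG00000125901, chr20:3046052-3048250, plus strand), a protein found only in mitochondrial ribosomes, was at 14.9, 15.8 and 14.9 CPM against 7.03, 9.01 and 9.19 CPM (-0.85, SE 0.109, adjusted p = 3.29e-06). MRPS27 (ENSG00000113048, chr5:72214953-72321717, minus strand), a pentatricopeptide repeat protein that binds RNA, was at 102, 111 and 99.1 CPM against 61.1, 58.6 and 61.6 CPM (-0.78, SE 0.0576, adjusted p = 4.11e-09). MRPS21 (ENSG00000266472, chr1:150293861-150308979, plus strand), the counterpart of bacterial S21, was at 46.2, 38.3 and 39.3 CPM against 26.5, 24.1 and 23.8 CPM (-0.73, SE 0.0814, adjusted p = 5.91e-07). In each of the 3 the highest knockdown sample was well below the lowest control. The remaining gene was MRPL21 (ENSG00000197345, chr11:68891276-68903835, minus strand), the counterpart of bacterial L21, at 25.4, 24.6 and 25.4 CPM against 16.8, 16.1 and 16.3 CPM (-0.62, SE 0.0767, adjusted p = 2.32e-06). Its samples varied little within either group.

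The largest rise was that of MRPS28 (ENSG00000147586, chr8:79918717-80030289, minus strand), which stands where the bacterial small subunit has part of S1. It was at 9.57, 11.5 and 11.5 CPM in the scrambled samples and at 16.6, 15.7 and 20.1 CPM with NFIC KD (0.69, SE 0.110, adjusted p = 4.02e-05). It shares 35.8% of its exon bases with AC036214.3 on the same strand, which was at 18.1 and 21.5 CPM, so its counts depend on how shared reads were assigned. MRPL46 (ENSG00000259494, chr15:88459477-88467390, minus strand), found only in mitochondrial ribosomes, was at 18.0, 19.4 and 19.1 CPM against 24.6, 24.8 and 28.9 CPM (0.47, SE 0.0843, adjusted p = 0.000119). Of the exon bases of MRPL46 11.3% are shared with AC013489.1 on the same strand (25.7 and 34.7 CPM, group means). MRPL28 (ENSG00000086504, chr16:366969-371289, minus strand), the counterpart of bacterial L28, was at 35.5, 35.8 and 32.5 CPM against 47.0, 44.8 and 51.1 CPM (0.46, SE 0.0698, adjusted p = 2.16e-05). In these genes the lowest knockdown sample exceeded the highest control.

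MRPL1 (ENSG00000169288, chr4:77862830-77952785, plus strand), the counterpart of the bacterial L1 that forms a mobile stalk at the site where spent tRNA leaves, was at 20.5, 21.0 and 22.7 CPM against 25.3, 25.9 and 33.7 CPM (0.41, SE 0.1004, adjusted p = 0.00224). N3 was its highest sample, and without N3 the log2 fold change was 0.27 (adjusted p = 0.00916), or 0.25 without C3 and N3 (adjusted p = 0.0139). MRPS18A (ENSG00000096080, chr6:43671202-43687791, minus strand) carries a small-subunit symbol but its protein lies in the large subunit, and it was at 36.2, 41.2 and 38.9 CPM against 50.7, 50.04 and 53.5 CPM (0.41, SE 0.0662, adjusted p = 4.57e-05). Of its exon bases 50.9% are shared with RSPH9 on the opposite strand, which was itself at 23.3 and 31.2 CPM. The library kit is not stated to keep strand, so reads of the shared part cannot be told apart.

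**Figure D3:**
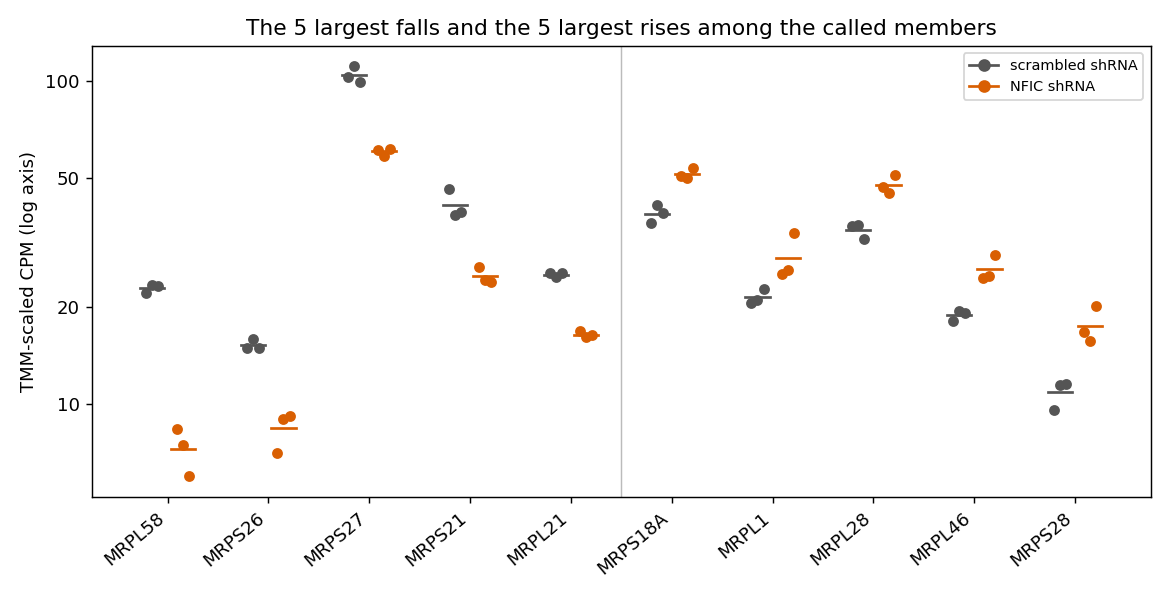
TMM-scaled CPM (y axis, log scale) in each of the 6 samples for the 5 called members with the largest falls and the 5 with the largest rises, with points for samples and short lines for group means. The groups do not overlap in any of the 10 genes, and the N3 point is the highest of its group in the 5 genes that rose.

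By place in the ribosome, 17 of 51 large-subunit genes fell and 10 rose (median 0.00023), and 13 of 26 small-subunit genes fell and 4 rose (median -0.15). That is 33.3% lower and 19.6% higher in the large subunit and 50% lower and 15.4% higher in the small one, beside 30.3% and 29.6% of all genes tested, so the share of falls in the large subunit was near the background. Of the 30 large-subunit genes with a bacterial counterpart, 11 fell and 3 rose, and of the 21 found only in mitochondria, 6 fell and 7 rose. In the small subunit 8 of 16 with a bacterial counterpart fell and 3 rose, and 5 of 10 found only in mitochondria fell and 1 rose. Both origins held genes of both directions, with medians of -0.07 over the 46 with a bacterial counterpart and -0.04 over the 31 others. These shares are counts of chosen groups, and the differences between them were not tested.

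A few other members are named here after their values were seen. MRPL4, which lines the tunnel that the new chain leaves through, was at 30.4, 32.5 and 29.3 CPM against 20.4, 18.4 and 21.5 CPM (-0.61, adjusted p = 4.27e-06). MRPL22, another protein of that tunnel, was at 14.2, 19.1 and 16.3 CPM against 21.7, 19.1 and 24.2 CPM (0.39, adjusted p = 0.00628), with N2 level with C3. These neighbours of the tunnel passed the test in opposite directions. MRPL3, an abundant large-subunit protein with a bacterial counterpart, was at 128, 124 and 120 CPM against 89.0, 91.0 and 92.2 CPM (-0.45, adjusted p = 9.34e-07). MRPS25 is a small-subunit gene found only in mitochondria. It was at 92.6, 87.4 and 87.4 CPM against 60.0, 65.2 and 57.1 CPM (-0.55, adjusted p = 4.90e-07). In the GENCODE annotation 39.1% of the exon bases of MRPS25 are shared with NR2C2 on the opposite strand. These 7157 bases exceed its deposited length of 5371 bases, so the shared part of the exons counted is not known. MRPS7, an assembly-nucleating protein of the small subunit in bacteria, was at 47.5, 47.3 and 47.0 CPM against 60.2, 57.1 and 65.8 CPM (0.37, adjusted p = 8.32e-05). MRPL45, which holds the ribosome at the inner membrane, was at 73.1, 75.5 and 72.1 CPM against 75.6, 75.3 and 82.1 CPM and did not pass the test (0.08, adjusted p = 0.249).

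Levels per length covered a wide range. FPKM (CPM per kilobase of the deposited gene length, mean over the 6 samples) ran from 2.23 for MRPL42 to 67.4 for MRPL12, a 30.2-fold range, although the proteins are mostly present once in each ribosome. The median was 11.8 FPKM beside 5.03 for protein-coding genes tested, and 69 of the 78 were above that value. The gene length counts every annotated exon base, 16394 for MRPL42, so a gene with long rare exons gets a low level. Level and log2 fold change were nearly unrelated over the members (Pearson's r = 0.028, Spearman's rho = 0.037, 78 genes that share the same libraries), and so were gene length and log2 fold change (r = 0.096).

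MRPL12, the highest, encodes the protein of the L7/L12 stalk that calls elongation factors and is also known to bind the mitochondrial RNA polymerase. It was at 72.9, 78.1 and 72.6 CPM against 58.5, 62.8 and 63.3 CPM and fell (-0.28, SE 0.0584, adjusted p = 0.000563), with 69.5% of its exon bases shared with AC139530.2 on the same strand. MRPL37, found only in mitochondria, was at 140, 154 and 145 CPM against 154, 156 and 175 CPM (0.14, SE 0.0577, adjusted p = 0.0420), where N1 was just above C3. Its call was lost under 6 of 16 alternative fits, with log2 fold changes of 0.09 to 0.14. The lowest of these were 0.085 with upper-quartile normalization and 0.086 without N3. MRPL18, the counterpart of bacterial L18, was at 78.7, 79.4 and 77.7 CPM against 81.7, 82.9 and 91.9 CPM (0.12, SE 0.0575, adjusted p = 0.0779). The groups did not overlap there, but the difference did not pass the test. It passed with total counts (0.14, adjusted p = 0.0361) and with the replicate block by title numbers (0.12, adjusted p = 0.041), and without N3 it was 0.07 (adjusted p = 0.276).

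At the low end, MRPL42, found only in mitochondria, was at 42.0, 42.4 and 38.3 CPM against 32.0, 31.0 and 34.1 CPM and fell (-0.34, SE 0.0695, adjusted p = 0.00045). MRPL46 was next with 3.51 FPKM, and its values are given above. MRPS11, the counterpart of bacterial S11, came after it with 3.63 FPKM, at 18.3, 21.9 and 18.6 CPM against 18.3, 20.8 and 24.6 CPM (0.11, SE 0.105, adjusted p = 0.365). Its groups overlapped in part, with N3 above every control and C1 just below every knockdown sample.

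**Figure D4:**
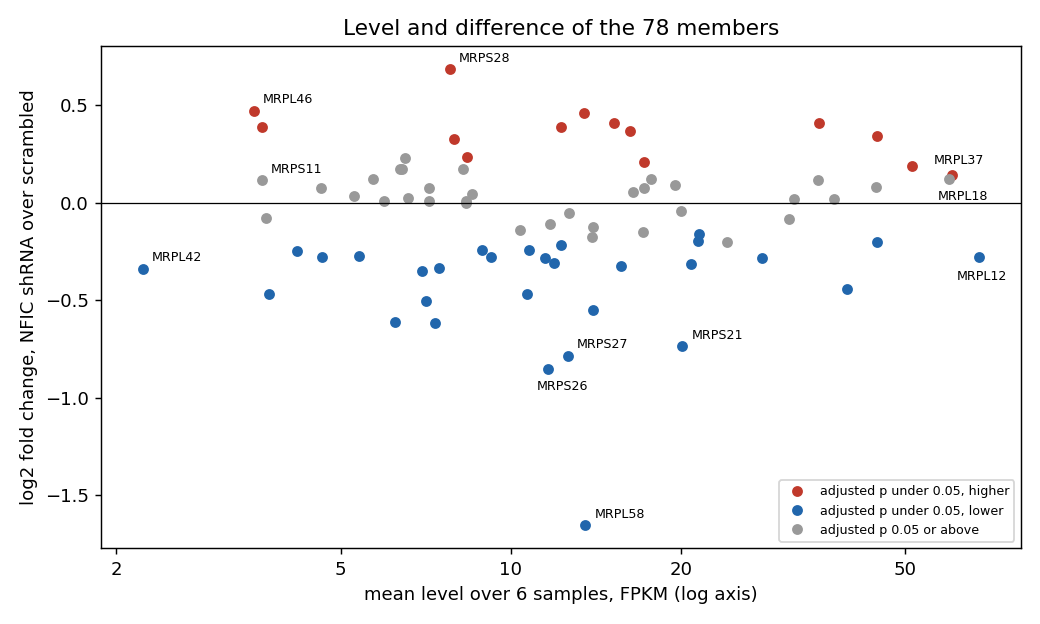
Mean level over the 6 samples in FPKM (x axis, log scale) against the log2 fold change of NFIC shRNA over scrambled (y axis) for the 78 members, colored by the call. Called genes of both directions are found from the lowest levels (MRPL42 at 2.23) to the highest (MRPL12 at 67.4), and MRPL58 lies alone at -1.65.

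Some members hardly differed. MRPS30, another gene whose protein lies in the large subunit despite its symbol, was at 53.7, 49.5 and 51.3 CPM against 48.9, 51.9 and 53.5 CPM (0.00023, 95% interval -0.13 to 0.13). MRPS22, found only in mitochondria and mutated in an inherited mitochondrial disease, was at 44.3, 44.05 and 45.7 CPM against 44.3, 43.1 and 47.2 CPM (0.0065, interval -0.13 to 0.14). MRPS18C, the closest relative of bacterial S18, was at 34.4, 36.7 and 33.5 CPM against 30.9, 36.6 and 37.4 CPM (0.0069, interval -0.16 to 0.17). In all 3 the groups overlapped, and the sign depended on the processing. MRPS22 shares 38.9% of its GENCODE 44 exon bases with COPB2 (189 and 234 CPM, group means), although these bases exceed its deposited length. MRPS18C shares 40.2% with ABRAXAS1 (44.4 and 38.9 CPM). Both neighbours lie on the opposite strand, so the values of MRPS22 and MRPS18C are less certain.

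The 3 paralogs of the MRPS18 family thus had separate values. MRPS18A, in the large subunit, rose (0.41). MRPS18B, in the small subunit at a place with no bacterial counterpart, was at 36.3, 37.0 and 34.0 CPM against 34.0, 36.1 and 34.0 CPM (-0.04, interval -0.19 to 0.10, adjusted p = 0.583), and MRPS18C was at 0.0069. MRPS36, which later work places in the 2-oxoglutarate dehydrogenase complex and not in the ribosome, was at 13.2, 14.4 and 11.8 CPM against 13.1, 14.7 and 12.7 CPM (0.04, interval -0.17 to 0.26, adjusted p = 0.742).

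Mitoribosomal proteins with other symbols, which the rule left out, differed by small amounts too. DAP3, a GTP-binding protein of the small subunit, was at 179, 193 and 189 CPM against 164, 166 and 163 CPM (-0.18, SE 0.0491, adjusted p = 0.00365). CHCHD1, also of the small subunit, was at 16.4, 17.3 and 16.6 CPM against 18.8, 21.6 and 20.3 CPM (0.27, SE 0.0841, adjusted p = 0.0104). GADD45GIP1, at the exit of the tunnel in the large subunit, was at 64.6, 72.7 and 61.4 CPM against 68.5, 75.5 and 80.3 CPM (0.17, adjusted p = 0.0439), with overlapping groups and a call that was lost under 9 of 16 alternative fits. AURKAIP1 (-0.12, adjusted p = 0.0923) and PTCD3 (-0.0043, adjusted p = 0.953), both of the small subunit, did not pass the test.

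Many of these genes start next to a gene on the opposite strand. In the annotation 19 members had such a protein-coding partner with its start at most 1000 bases upstream or 200 bases inside, in 20 pairs. In 5 pairs both genes passed the test in opposite directions, in 2 both fell, in 10 only 1 of the pair passed, and in 3 neither did. Over all genes tested 59.9% passed, 30.3% lower and 29.6% higher, so pairs with both called are common in these data. MRPL46 and MRPS11 are counted once from each side. MRPL32 has 2 partners, PSMA2 and AC010132.3, with starts 191 and 162 bases away, and both rose, so this place is counted in 2 of the opposite pairs. Pairs of the same and of opposite direction both occurred, and no test of this was made.

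MRPL21, given above at -0.62, lies 28 bases from the start of IGHMBP2, a helicase gene, which was at 10.6 and 14.1 CPM (group means) and rose (0.41, SE 0.094, adjusted p = 0.00117). MRPL49, a large-subunit gene found only in mitochondria, was at 30.2, 35.3 and 32.8 CPM against 41.5, 40.5 and 46.6 CPM and rose (0.39, SE 0.0758, adjusted p = 0.000297), while FAU, which starts 6 bases away and encodes a fusion with a cytosolic ribosomal protein, fell from 306 to 262 CPM (-0.22, SE 0.0474, adjusted p = 0.000635). Of the exon bases of MRPL49 11.6% are shared with SYVN1 on the opposite strand (232 and 221 CPM, group means). MRPL54, also found only in mitochondria, fell (-0.32, adjusted p = 0.00371) and APBA3, with its start 990 bases away, rose (0.48, adjusted p = 0.000335). MRPL30 and MITD1 (-0.31 and -0.20) and MRPL52 and SLC7A7, an amino acid transporter gene (-0.24 and -0.76), fell together.

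MRPL32, the counterpart of bacterial L32, was at 18.3, 17.4 and 15.4 CPM against 13.4, 14.2 and 14.5 CPM (-0.28, SE 0.0918, adjusted p = 0.0142), a call that DESeq2 and the fits without C1 or without N1 did not give. Its neighbour PSMA2, a subunit of the proteasome, rose from 59.6 to 77.4 CPM (0.38, SE 0.0596, adjusted p = 3.36e-05). The 161 bases before the RefSeq start of MRPL32, printed because both genes that it separates passed the test in opposite directions, hold none of the motifs searched.
MRPL32 (chr7:42932215-42932375, plus strand): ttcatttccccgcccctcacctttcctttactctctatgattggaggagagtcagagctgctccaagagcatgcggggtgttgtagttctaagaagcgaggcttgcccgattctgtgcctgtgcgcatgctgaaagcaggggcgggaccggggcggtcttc
The pair MRPL46 and MRPS11, both members, start 63 bases apart, and the first rose (0.47) while the second did not pass the test (0.11).

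**Figure D5:**
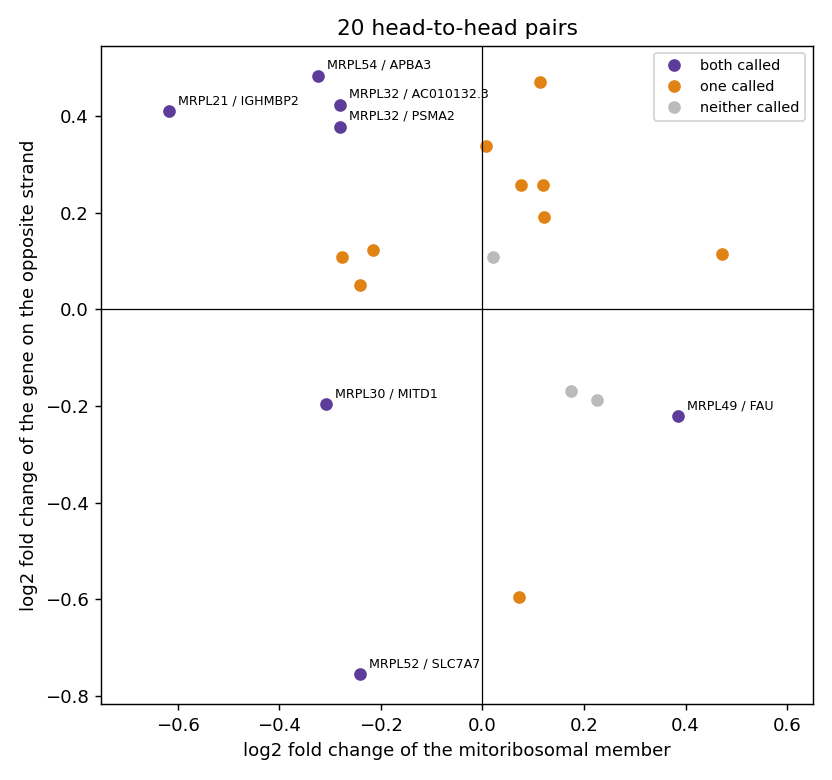
Log2 fold change of a member (x axis) and of the gene that starts next to it on the opposite strand (y axis) for the 20 pairs, colored by how many of the pair passed an adjusted p of 0.05. The pairs with both called lie in the upper left (MRPL21, MRPL32 and MRPL54), in the lower right (MRPL49) and in the lower left (MRPL30 and MRPL52).

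The genes that build and run the mitoribosome also had calls of both directions. Their shares are set beside 30.3% lower and 29.6% higher over all genes tested. Of 30 assembly factors 13 fell (43.3%) and 8 rose (26.7%), with a median of -0.16. RBFA, which matures the small subunit's RNA, was at 23.0, 22.6 and 21.1 CPM against 10.4, 11.9 and 10.97 CPM (-1.002, adjusted p = 4.05e-08), and C1QBP, a matrix protein needed for mitochondrial translation, was at 138, 147 and 140 CPM against 83.9, 83.8 and 89.8 CPM (-0.73, adjusted p = 4.06e-09). NGRN, needed for the large-subunit RNA, was at 77.0, 73.0 and 79.2 CPM against 130, 127 and 147 CPM (0.82, adjusted p = 5.40e-09), and RPUSD4, which modifies that RNA, rose as well (0.45, adjusted p = 2.44e-05). Among the members MRPL58 alone differed by more than RBFA. RBFA was named by its adjusted p and not by the size of its fall. The assembly factor MRM1, named here after its values were seen, fell further. It was at 5.18, 4.88 and 5.74 CPM against 1.84, 1.47 and 1.30 CPM (-1.78, adjusted p = 2.01e-07).

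Of 18 translation factors 6 fell (33.3%) and 4 rose (22.2%), with a median of -0.01, and the share of falls was near that of all genes. The elongation factor TUFM (-0.39, adjusted p = 1.11e-05) and the recycling factor MRRF (-0.56, adjusted p = 3.71e-05) fell, and MTRF1L, a release factor, and C12orf65, a rescue factor, rose (each 0.31, adjusted p = 0.00413 and 0.00568). Of 20 genes for mitochondrial tRNA charging 8 fell (40%) and 5 rose (25%), with a median of -0.12. MARS2, the methionyl-tRNA synthetase, was at 27.4, 30.7 and 28.4 CPM against 12.8, 14.7 and 11.5 CPM (-1.15, adjusted p = 1.44e-08), and RARS2, the arginyl-tRNA synthetase, was at 37.6, 39.9 and 34.4 CPM against 74.0, 69.0 and 81.6 CPM (1.00, adjusted p = 3.60e-09). EARS2 for glutamate fell (-0.71, adjusted p = 2.43e-06) and QRSL1, a subunit of the amidotransferase that makes glutaminyl-tRNA, rose (0.36, adjusted p = 7.71e-05).

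Of 12 genes for copying and transcribing mitochondrial DNA 5 fell (41.7%) and 3 rose (25%), with a median of -0.03. The mitochondrial topoisomerase TOP1MT (-1.17, adjusted p = 6.84e-10) and the helicase TWNK (-0.60, adjusted p = 9.58e-06) fell, and the DNA polymerase POLG (0.29, adjusted p = 0.000307) and the nuclease MGME1 (0.30, adjusted p = 0.00288) rose. Of 9 regulators of nuclear genes for mitochondria 3 fell and 3 rose (33.3% each). MYC was at 217, 233 and 223 CPM against 89.1, 91.8 and 76.4 CPM (-1.39, adjusted p = 2.37e-11), and the coactivator PPARGC1A fell as well (-0.50, adjusted p = 0.00042). YY1 (0.26, adjusted p = 0.000183) and GABPB1, a subunit of GABP (0.26, adjusted p = 0.00197), rose, and NRF1 was at 22.1, 20.8 and 23.4 CPM against 23.5, 21.1 and 25.1 CPM (0.07, adjusted p = 0.484).

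Reads of members can be shared with other genes. In GENCODE 44, 41 of the 78 share exon bases with a neighbour, 17 of them over 20%. The authors counted on an Ensembl gene set whose lengths differ for some members, so these shares are approximate for the counts. MRPS22 has 5382 bases there and 16385 in GENCODE 44, and the neighbour of MRPS5 has no deposited counts. The table lists 19 pseudogenes named after a member, of which 6 were tested, with a mean of at most 13.5 CPM. Counts of members with shared exons or pseudogenes are less certain, since the assignment of shared reads is not given in the sources used here.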

How the data were processed

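RNA of GFP-sorted THP-1 cells was sequenced in 3 scrambled and 3 NFIC KD samples. According to the labels and methods, the authors trimmed reads (Trim Galore), mapped them to GRCh38 with STAR and counted them with featureCounts on Ensembl genes. Versions of these tools and the treatment of reads shared between genes are not given in the sources used here. The deposited table holds raw counts, a normalized signal (counts over DESeq2 size factors) and FPKM, all made by the authors, besides the columns of their own DESeq2 comparison (fold changes and p-values), which were not used.

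Counts were tested with edgeR 4.0.16 (R 4.3.3; TMM factors, filterByExpr, robust quasi-likelihood fit, no covariates, all 6 samples) and Benjamini-Hochberg adjustment over the 19182 genes tested, with a threshold of 0.05. The script was tested on simulated data. Some markers of other cells are not reported here. SE was the log2 fold change over the square root of F, and intervals are at 95%. CPM were scaled by TMM factors, and own FPKM were these per kilobase of the deposited gene length. With 3 samples a group an exact permutation test cannot pass the threshold, so none is given. Positions and exons were taken from GENCODE 44 by gene ID and promoters from RefSeq (GRCh38.p14) by symbol.

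The members, gene lists and motifs were chosen with earlier results of these data known. Values were given for the 5 called members with the largest rise and fall, the 3 highest and 3 lowest by FPKM, the 3 nearest to 0, the MRPS18 paralogs, MRPS30, MRPS36, the mitoribosomal proteins with other symbols and up to 2 genes a direction in each pathway list, by adjusted p. Alternatives were other normalizations, DESeq2 1.42.0, other filters, samples left out, replicate blocks, protein-coding genes only and an adjusted p under 0.01. The deposited FPKM in place of the own value was added after the data were seen.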

Additional observations from a re-analysis of the deposited data

How the results depend on the processing

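Over 16 alternative fits, 37 to 48 members were called (main value 44), 12 to 16 higher and 23 to 36 lower, and no called member changed direction. With 1 sample left out, 37 to 44 were called, fewest without N1 (23 lower and 14 higher). In every fit 34 of the 44 members were called in the same direction, 22 lower and 12 higher. Upper-quartile normalization moved the split to 36 lower and 12 higher, with a median of -0.11. DESeq2 called 39, and an adjusted p under 0.01 left 36. Pairing by sample number gave low correlations of the deviations, from -0.0862 to 0.145, the highest for C3 with N3. By title only C1 with N1 and C3 with N3 share a number, and C4 was set with N2 as the remaining pair (0.0267). With a replicate block 43 members were called by the numbers of the descriptions and 47 by the pairs of the titles.

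Signs turned only for named genes that did not pass the test. With at least 10 counts in every sample, protein-coding genes only, upper-quartile normalization and without C3 and N3, the log2 fold change was -0.014, -0.014, -0.057 and -0.058 for MRPS30, -0.0072, -0.0074, -0.051 and -0.044 for MRPS22, and -0.0068, -0.0068, -0.050 and -0.0057 for MRPS18C. With the replicate block by descriptions MRPS30 was at -0.00023. MRPS36 was at -0.014 with upper-quartile normalization. PTCD3 was at 0.012 with DESeq2, 0.0040 with its size factors and 0.013 with total counts. With 1 sample left out the values ran from -0.034 to 0.039 for MRPS30, from -0.028 to 0.039 for MRPS22, from -0.040 to 0.093 for MRPS18C, from -0.034 to 0.11 for MRPS36, from -0.0010 to 0.21 for MRPS11 and from -0.045 to 0.028 for PTCD3. The cause was not tested. The deposited FPKM named the same 3 highest and 3 lowest members and differed from the own value by less than 1%. Depth limits the members little, since each had at least 135 counts in every sample, and the number of samples limits the precision.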
